A study of Mus musculus with 6 samples.

Results

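The guanylate-binding proteins (GBPs) and immunity-related GTPases (IRGs) were followed here through 8 genes, found by symbol among the 28836 genes of the deposited table: the GBPs Gbp2, Gbp3, Gbp5 and Gbp7 and the IRGs Irgm1, Igtp, Ifi47 and Iigp1. All 8 symbols were present and all 8 passed the filter on low counts. Poly(A) RNA had been sequenced from RAW264.7 cells, an immortal mouse line with macrophage features, in 3 GB2-treated and 3 untreated libraries. GB2 is a prodrug in which MSA-2, an agonist of the DNA-sensing adaptor STING, is tied to artesunate, used in the study against the myeloid receptor TREM2, by a disulfide that glutathione cleaves. The labels give no genotype change, dose or exposure time for either group, and both groups are a single cell line. In the study the sequenced macrophages sat under tumour cells in a transwell chamber. The study states a GB2 dose and exposure time for that experiment, which the labels do not repeat. Whether the untreated cells were also cultured this way is not stated. The study describes its replicates as biological, and the labels add only a replicate number.

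GBPs and IRGs are large GTPases that macrophages make in response to interferons, above all interferon-gamma, whose receptor acts through the kinases JAK1 and JAK2 and transcription factors such as IRF1. They gather on the membranes of vacuoles that hold bacteria or parasites, and GBPs also coat bacteria that reach the cytosol and help to start inflammasome signalling. Among the mouse IRGs, regulators such as Irgm1 and Igtp sit on the membranes of the cell and keep effectors such as Iigp1 inactive there.

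Total estimated counts were between 62660734 and 77337345 per library. Macrophage markers were expressed in every library. The summed level of 8 genes was 6928 to 8010 FPKM (fragments scaled by transcript length and library size) in GB2-treated cells. In untreated cells it was 14482 to 15029 FPKM. Most of this sum was Lyz2, at a mean of 6552 FPKM in GB2-treated and 13128 FPKM in untreated cells. Adgre1, Csf1r and Cd68 were also lower in GB2-treated cells, while Itgam was higher (202 against 157 FPKM). The groups overlapped for Fcgr1, Mertk and Ptprc. GB2-treated replicates 2 and 3 also held transcripts of other tissues. The 9 hepatocyte markers summed to 549 and 529 FPKM there, against 6.33 FPKM in GB2-treated replicate 1 and 2.18 to 2.78 FPKM in untreated cells. The 4 heart muscle markers (146 and 197 FPKM there, at most 0.14 FPKM in the other 4 libraries) and the 4 erythroid markers (113 and 114 FPKM there, at most 3.42 FPKM in the other libraries) followed the same libraries. Epithelial markers summed to 59.8 and 62.9 FPKM there and to 0.92 FPKM in GB2-treated replicate 1, against 1.00 to 1.43 FPKM in untreated cells. Endothelial markers summed to 9.11 and 13.5 FPKM there and to 1.21 FPKM in GB2-treated replicate 1, against 5.01 to 5.32 FPKM in untreated cells. Most of the untreated endothelial sum was Vwf, at a mean of 4.67 FPKM in untreated and 1.19 FPKM in GB2-treated cells. Each other endothelial marker was higher in GB2-treated replicates 2 and 3 than in every untreated library. Pecam1, for example, had 2.94 and 4.26 FPKM in these replicates, against a mean of 0.09 FPKM in untreated cells. T and NK lymphocyte markers, which would mark cells that secrete interferon-gamma, summed to 0.04 to 0.15 FPKM in GB2-treated cells. In untreated cells they summed to 0.03 to 0.13 FPKM, and Cd3d was at 0 in all 6 libraries. Of the 9 such markers chosen, 6 were in the table, and Cd3e, Ncr1 and Klrb1c were not, so this search was incomplete. B and plasma cell markers reached 0.92 FPKM in replicate 2 and 2.77 FPKM in replicate 3 of the GB2-treated group. Their sum was 0.24 FPKM in replicate 1 of that group and at most 0.21 FPKM in untreated cells. Values without GB2-treated replicates 2 and 3 are given for several genes below and not for every result. That fit keeps GB2-treated replicate 1 alone in its group, with no spread there, so its log2 changes are read without a test. In bulk RNA, fewer cells of a type and less RNA per cell cannot be told apart.

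The GBP members lie side by side on the plus strand of mouse chromosome 3 (build mm10): Gbp5 (ENSMUSG00000105504) at 142493978 to 142522344, Gbp7 (ENSMUSG00000040253) at 142530342 to 142550149, Gbp3 (ENSMUSG00000028268) at 142560026 to 142573209 and Gbp2 (ENSMUSG00000028270) at 142620602 to 142638008. Of the IRG members, 3 lie in clusters on chromosome 11: Irgm1 (ENSMUSG00000046879) on the minus strand at 48861968 to 48871683, Ifi47 (ENSMUSG00000078920) on the plus strand at 49076587 to 49096974 and Igtp (ENSMUSG00000078853) on the plus strand at 58199556 to 58207591. All 8 are annotated as protein-coding in GENCODE M21, the GBPs with up to 11 or 12 exons per transcript and the IRGs with up to 3 or 4.

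Promoters are shown because both families are induced through a pair of DNA elements, the interferon-stimulated response element (ISRE), bound by IRF factors among others, and the gamma-activated site (GAS). RefSeq promoter windows (250 bases before to 50 after the annotated start, build GRCm38.p6, the same sequence as mm10) were found for 7 members, 8 windows in all, and not for Iigp1. An ISRE core was searched as 2 copies of GAAA with NN between them and a GAS core as TTCNNNGAA, where N is any base, each on both strands and with overlapping matches counted. Of the 7 genes, 6 held an ISRE core, against 3.44% of all 32851 promoter windows of this length, and 3 (Gbp5, Gbp7 and Igtp) held a GAS core, against 8.30% of all windows. The same 3 held both cores, against 0.454% of all windows. No match was found in the Ifi47 window. A match is a description of the letters and does not show that a factor binds. The stretches that carry the matches run 5′ to 3′ along the gene's own strand, with the cores in capitals. They end at the RefSeq start, or a little before it for Gbp2 and Gbp5, and Irgm2 is set beside Igtp for comparison. For several genes this start is not the gene start of the coordinates in the deposited table. The stretches of Irgm1, Gbp5 and Irgm2 lie inside those gene coordinates, and those of Gbp2 and Gbp3 run past the gene start.
Gbp2 (chr3:142620543-142620628, plus strand): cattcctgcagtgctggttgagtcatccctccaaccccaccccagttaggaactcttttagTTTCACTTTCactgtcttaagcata
Gbp3 (chr3:142559924-142560043, plus strand): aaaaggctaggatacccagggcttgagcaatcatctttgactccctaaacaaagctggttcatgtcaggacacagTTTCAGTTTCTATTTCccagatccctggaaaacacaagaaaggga
Gbp5 (chr3:142496754-142496899, plus strand): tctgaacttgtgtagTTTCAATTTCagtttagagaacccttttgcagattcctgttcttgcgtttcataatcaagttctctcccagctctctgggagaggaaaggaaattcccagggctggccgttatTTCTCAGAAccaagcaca
Gbp7 (chr3:142530216-142530335, plus strand): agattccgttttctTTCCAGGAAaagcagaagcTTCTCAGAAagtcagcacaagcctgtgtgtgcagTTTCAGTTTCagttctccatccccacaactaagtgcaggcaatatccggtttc
Irgm1 (chr11:48871421-48871540, minus strand): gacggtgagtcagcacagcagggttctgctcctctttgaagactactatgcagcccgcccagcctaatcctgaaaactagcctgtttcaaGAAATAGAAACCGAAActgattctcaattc
Igtp (chr11:58199436-58199555, plus strand): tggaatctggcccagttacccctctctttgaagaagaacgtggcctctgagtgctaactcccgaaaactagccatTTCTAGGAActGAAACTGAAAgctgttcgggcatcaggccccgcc
Irgm2 (chr11:58214857-58214976, plus strand): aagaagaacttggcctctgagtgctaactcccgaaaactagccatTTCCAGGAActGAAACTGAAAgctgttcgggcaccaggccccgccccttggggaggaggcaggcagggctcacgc

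The ISRE core began 59 bases before the RefSeq start in Gbp2, 53 bases before it in Gbp7 and 165 bases before it in Gbp5. The second GAS core of Gbp5, 245 bases before the RefSeq start, lies outside the stretch shown. Gbp3 and Irgm1 each had 2 overlapping cores, which began 45 and 39 bases before the start of Gbp3 and 30 and 24 bases before that of Irgm1. In Igtp a GAS core 45 bases before the start was followed by an ISRE core that began 11 bases further on. The same spacing of 11 bases was found in Irgm2, Tgtp1 and Tgtp2, 3 other IRG genes of chromosome 11. Shifted by 30 bases, 87 of 90 bases were identical between the Igtp and Irgm2 stretches (96.7%), so the stretches next to the starts of these neighbours are near-identical. The members whose RNA was higher in GB2-treated cells and those whose RNA was lower therefore both included genes with ISRE and GAS cores.

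RAW264.7 cells expressed the IRG members Irgm1, Igtp and Ifi47 above all 4 GBP members. In untreated cells the order of mean FPKM was Irgm1, Igtp, Ifi47, Gbp2, Gbp7, Gbp3, Iigp1 and Gbp5. Irgm1, Igtp and Ifi47 had levels above those of 69.4% to 74.1% of the genes detected by FPKM in any library, whereas Gbp5 was above 23.2%. Among neighbours in this order, the libraries of Igtp and Ifi47, of Gbp7 and Gbp3, and of Gbp3 and Iigp1 overlapped, and the other neighbours did not. In GB2-treated cells the order was Irgm1, Ifi47, Igtp, Gbp2, Gbp7, Gbp3, Iigp1 and Gbp5, and Irgm1 overlapped with both Ifi47 and Igtp, and Iigp1 with both Gbp3 and Gbp5. Levels of GBP members were below 1 FPKM in all libraries. The 4 GBP members summed to 1.34, 1.37 and 1.48 FPKM in GB2-treated cells, against 1.06, 0.92 and 0.95 FPKM in untreated cells. The 4 IRG members summed to 6.12, 6.75 and 6.55 FPKM in GB2-treated cells, against 12.43, 10.83 and 10.72 FPKM in untreated cells, so the sums of both families did not overlap between groups and lay in opposite directions.

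The 2 GBP and the 3 IRG members that passed the FDR differed between groups in opposite directions, in numbers near the shares of all genes given below. Irgm1, Igtp and Ifi47 had lower RNA levels in GB2-treated cells, by 1.38-fold (Ifi47) to 2.06-fold (Irgm1), while Gbp5 and Gbp7 had higher levels, by 7.59-fold and 1.97-fold. Gbp2, Gbp3 and Iigp1 did not pass. GB2-treated and untreated cells were compared for each gene with edgeR (quasi-likelihood F test on estimated counts, adjusted over all 17124 genes tested). A gene was called where its adjusted p-value, the false discovery rate (FDR), was under 0.05 and its change reached 2-fold. Of the 8 members, 1 was called higher (Gbp5) and 1 was called lower (Irgm1) in GB2-treated cells. Over all genes tested 13.4% were called higher and 7.73% lower, so neither count stands apart from the background. Without GB2-treated replicates 2 and 3, 0 members were called higher and 1 lower (Irgm1), against 7.85% and 7.89% of the genes tested there. At the FDR alone, 2 members were higher (Gbp5 and Gbp7) and 3 lower (Irgm1, Igtp and Ifi47), against 26.8% and 29.6% of all genes. The FPKM of the groups did not overlap for 6 members, with GB2-treated libraries above untreated ones for Gbp3, Gbp5 and Gbp7 (27.4% of all genes) and below them for Irgm1, Igtp and Ifi47 (34.5% of all genes). The median log2 change was 0.99 over the 4 GBPs and -0.70 over the 4 IRGs, against 0.01 over all genes.

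**Figure D1:**
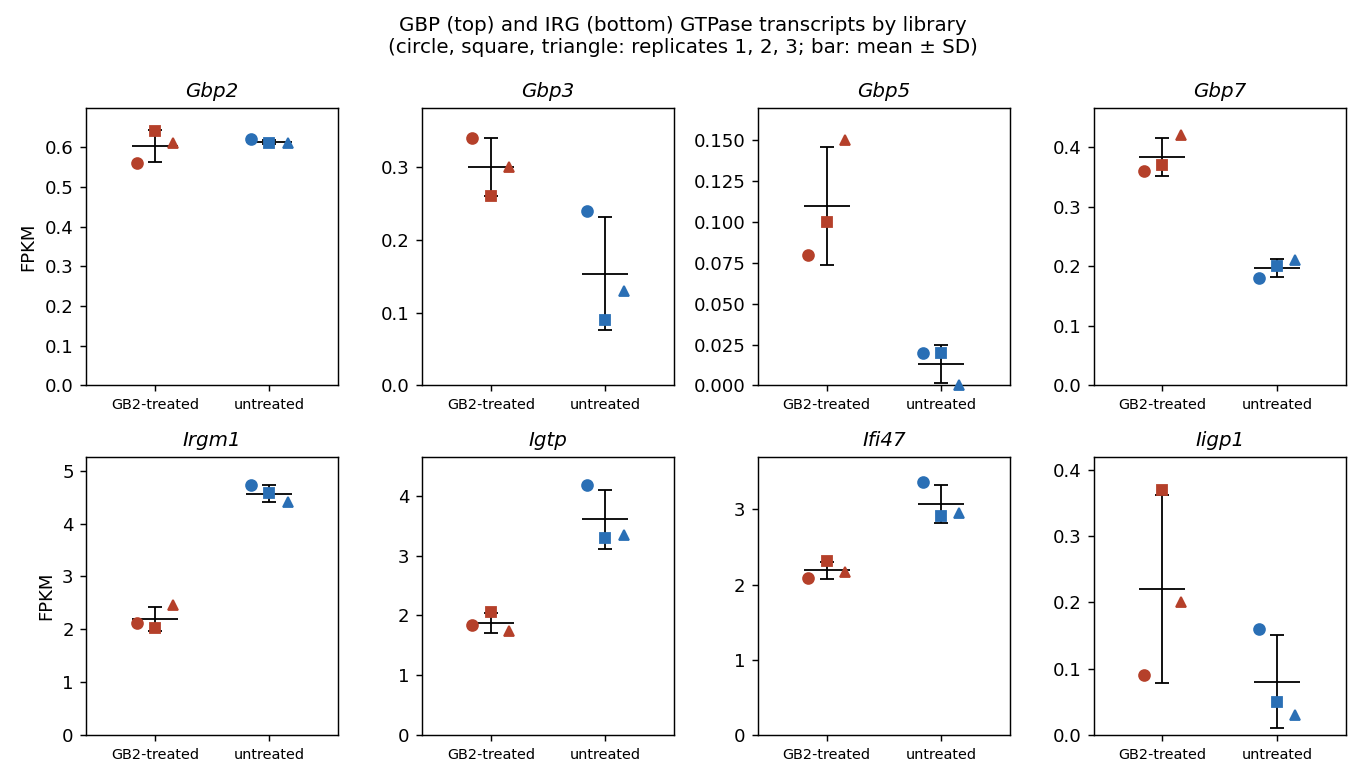
FPKM of the 8 GBP and IRG genes in each of the 3 GB2-treated (red) and 3 untreated (blue) libraries, with symbols for replicates 1, 2 and 3 and bars for the mean ± SD. Each panel has its own vertical axis from 0. GB2-treated libraries lie above untreated ones for Gbp3, Gbp5 and Gbp7 and below them for Irgm1, Igtp and Ifi47, while Gbp2 and Iigp1 overlap.

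Irgm1, a regulator of the other IRGs that is also linked to autophagy and lysosomes, had 2.11, 2.02 and 2.45 FPKM in replicates 1, 2 and 3 of GB2-treated cells, against 4.73, 4.57 and 4.40 FPKM in those of untreated cells. Every GB2-treated library was below every untreated one. The log2 change was -1.04 ± 0.08 (SE, n = 3 each; edgeR FDR = 2.50e-05). The 95% interval, -1.23 to -0.85, spans the 2-fold threshold, and the change was -0.999 with DESeq2 size factors and -0.97 without GB2-treated replicate 2, so the call by fold ends there while the FDR stays below 0.05. It was -1.03 without GB2-treated replicates 2 and 3, the libraries with transcripts of other tissues.

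Igtp, also known as Irgm3, a regulator found on the endoplasmic reticulum and lipid droplets, had 1.83, 2.05 and 1.73 FPKM in GB2-treated libraries, against 4.18, 3.30 and 3.34 FPKM in untreated libraries. The groups did not overlap, and untreated replicate 1 stood above its other 2 replicates. The log2 change was -0.93 ± 0.16 (edgeR FDR = 0.00211), short of the fold threshold, and it passed that threshold without untreated replicate 2 or 3, with -1.01 at most. Igtp shares 8.0% of its exonic bases with Irgm2 on the same strand, so reads there could be assigned to either gene.

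Ifi47, an IRG of the effector type, had 2.09, 2.31 and 2.17 FPKM in GB2-treated cells and 3.36, 2.91 and 2.95 FPKM in untreated cells. The groups were apart, by less than for Irgm1 and Igtp. The log2 change was -0.46 ± 0.13 (edgeR FDR = 0.0173). The FDR was 0.0601 without GB2-treated replicate 3 and 0.0685 without untreated replicate 1, and 0.051 with a replicate block. Ifi47 shares 4.5% of its exonic bases with Olfr56 on its own strand and 4.3% with Gm12188 on the other strand.

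Iigp1, also known as Irga6, the effector best known for its coating of the Toxoplasma vacuole, lies away from the other members on the plus strand of chromosome 18 at 60376027 to 60392634 (ENSMUSG00000054072). Its level was low in all libraries. GB2-treated libraries held 0.09, 0.37 and 0.20 FPKM, against 0.16, 0.05 and 0.03 FPKM in untreated libraries. The groups overlapped, and its log2 change of 1.45 ± 0.70 was not called (edgeR FDR = 0.118, 95% interval -0.20 to 3.10). The higher values were those of GB2-treated replicates 2 and 3, the libraries with transcripts of other tissues. Without them the log2 change was 0.28, and without GB2-treated replicate 1 alone it was 1.79 (edgeR FDR = 0.0382). Their part in the Iigp1 level was not tested beyond this.

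Gbp5, which promotes assembly of the NLRP3 inflammasome in macrophages, was the member with the largest fold difference and the lowest level. It had 0.08, 0.10 and 0.15 FPKM in GB2-treated libraries (40, 46 and 66 estimated counts), against 0.02, 0.02 and 0.00 FPKM in untreated libraries (12, 11 and 0 estimated counts). The groups did not overlap, and untreated replicate 3 had no read. The log2 change was 2.92 ± 0.93 (edgeR FDR = 0.0305, 95% interval 0.73 to 5.11). The call rested on few reads: the FDR was 0.0635 or 0.0939 without GB2-treated replicate 2 or 3, and 0.0998 or 0.116 without untreated replicate 1 or 2. Without GB2-treated replicates 2 and 3 together the log2 change was 2.51.

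Gbp7, which in mouse macrophages is linked to assembly of the phagocyte oxidase, had 0.36, 0.37 and 0.42 FPKM in GB2-treated cells and 0.18, 0.20 and 0.21 FPKM in untreated cells. Every GB2-treated library was above every untreated one, with little spread within groups. The log2 change was 0.98 ± 0.21 (edgeR FDR = 0.00611), just short of 2-fold, and it was 0.95 without GB2-treated replicates 2 and 3. With DESeq2 size factors it was 1.02, past the fold threshold. Gbp7 shares 11.3% of its exonic bases with the same-strand gene model Gm43802, and reads there could be assigned to either.

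Gbp3, a GBP recruited to Toxoplasma vacuoles, had 0.34, 0.26 and 0.30 FPKM in GB2-treated libraries, against 0.24, 0.09 and 0.13 FPKM in untreated libraries. The groups did not overlap, but untreated replicate 1 lay close to GB2-treated replicate 2. The log2 change of 0.99 ± 0.42 was not called (edgeR FDR = 0.0771, 95% interval 0.02 to 1.97), and without untreated replicate 1 it was 1.45 (edgeR FDR = 0.0348). Without GB2-treated replicates 2 and 3 it was 1.22.

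Gbp2, a prenylated GBP that helps to break open pathogen vacuoles, had the highest level of the 4 GBPs and was nearly the same in both groups. It had 0.56, 0.64 and 0.61 FPKM in GB2-treated cells and 0.62, 0.61 and 0.61 FPKM in untreated cells. The log2 change was -0.00 ± 0.21 (edgeR FDR = 0.999), with a 95% interval of -0.50 to 0.50, and its sign changed with the scaling.

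**Figure D2:**
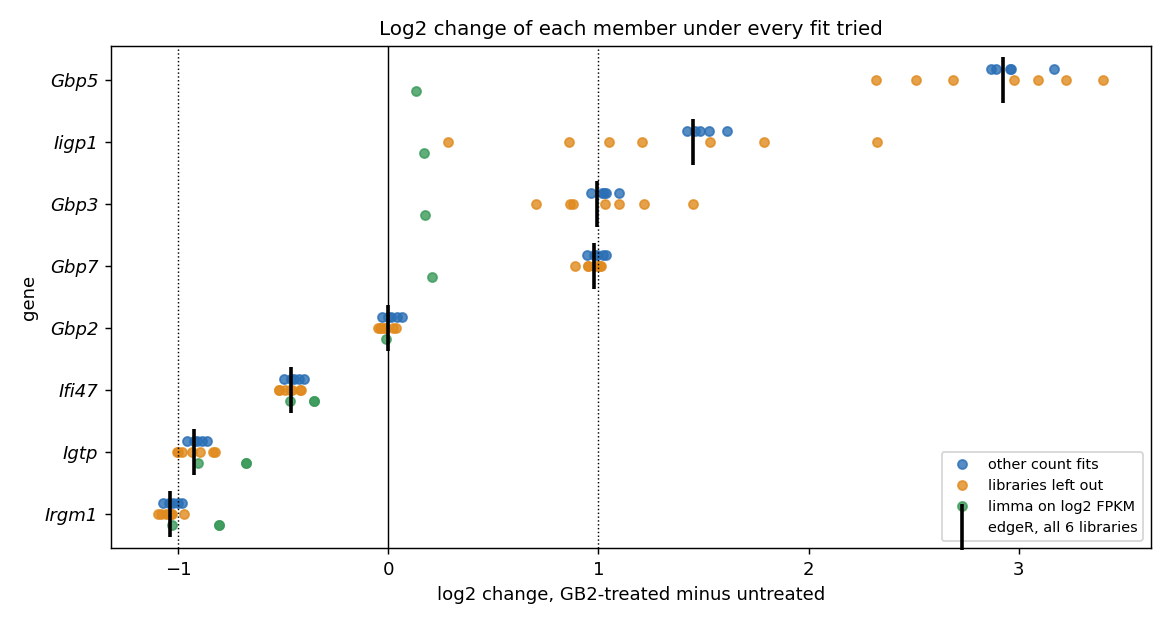
Log2 change (GB2-treated minus untreated, horizontal axis) of each of the 8 genes (vertical axis) in edgeR with all 6 libraries (black bars), in other fits of the counts (blue), in fits with libraries left out (orange) and in limma on log2 FPKM (green). Dotted lines mark 2-fold in either direction. Irgm1 stays between -1.09 and -0.80, Gbp7 is near 0.98 in the count fits, and Iigp1 runs down to 0.28 in count fits without GB2-treated replicates 2 and 3.

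The relatives of the 8 genes were examined next, to see how far each family moved together. The list held 25 further GBP, IRG, very large GTPase and Mx genes, of which 23 were in the table and 17 were tested. By edgeR 0 were called higher and 4 lower in GB2-treated cells, against 13.4% and 7.73% of all genes. At the FDR alone 3 were higher and 7 lower, against 26.8% and 29.6% of all genes. The same counts held at an unadjusted p below 0.05. The DESeq2 Wald test, run with no such filter, called 3 of them higher (Mx1, Gm4951 and F830016B08Rik, each too low for the edgeR filter) and limma called 0. Mx1, an antiviral GTPase, had 8, 20 and 30 estimated counts in GB2-treated cells, against 0, 4 and 2 in untreated cells. The median log2 change of the 17 was -0.28.

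On chromosome 3, the cluster that holds the GBP members had 5 tested genes. Of these, 1 was called higher and 0 were lower at the FDR, against 13.4% and 29.6% of all genes. The fifth gene there, Gbp2b, had a log2 change of 0.40 ± 0.35 (edgeR FDR = 0.367). The other GBP cluster, on the minus strand of chromosome 5, had 2 of 7 tested genes called lower (Gbp11 and the gene model Gm43302), 0 called higher and 1 higher at the FDR (Gbp8), against 7.73%, 13.4% and 26.8% of all genes. The difference between the clusters was not tested. Gbp8 was the most abundant GBP of these cells, at 14.91, 13.25 and 16.19 FPKM in GB2-treated libraries, against 10.60, 11.09 and 12.21 FPKM in untreated libraries. Its groups did not overlap, and its log2 change was 0.40 ± 0.07 (edgeR FDR = 0.00234), below the fold threshold. Gbp11, annotated as a polymorphic pseudogene, was called lower at 0.17, 0.07 and 0.08 FPKM in GB2-treated cells, against 0.56, 0.24 and 0.30 FPKM in untreated cells. Its log2 change was -1.70 ± 0.49 (edgeR FDR = 0.0210). The call ended without GB2-treated replicate 2 (FDR = 0.0743) or 3 (FDR = 0.0793), and without untreated replicate 1 (FDR = 0.108) or 3 (FDR = 0.0583). Without GB2-treated replicates 2 and 3 together the log2 change was -1.02. Gbp6 and Gbp10 had log2 changes of -0.83 (edgeR FDR = 0.0828) and -0.85 (edgeR FDR = 0.112), and both share much of their sequence with Gm43302 (-2.02, edgeR FDR = 0.00228), so these values are uncertain. Gbp6 was -1.16 (edgeR FDR = 0.0208) without GB2-treated replicate 1 and -0.30 (edgeR FDR = 0.513) without GB2-treated replicates 2 and 3. Gbp4 and Gbp9 were not called, at -0.27 (edgeR FDR = 0.711) and -0.22 (edgeR FDR = 0.668), and their values depended on the libraries used. Without GB2-treated replicate 1 they were 0.14 and 0.053. Without GB2-treated replicates 2 and 3, Gbp4 was -1.99 and Gbp9 was -1.03.

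On chromosome 11, the first IRG cluster runs from Irgm1 to Ifi47. Of its 10 tested genes, 8 had a negative log2 change. In this cluster 4 were called lower and 1 was called higher, against 7.73% and 13.4% of all genes. Besides Irgm1, the genes called lower were Gm5431, 9930111J21Rik1 and 9930111J21Rik2, IRG-like gene models that lie between Irgm1 and Ifi47. Gm5431 had 0.19, 0.33 and 0.32 FPKM in GB2-treated cells, against 2.22, 2.29 and 2.56 FPKM in untreated cells, a log2 change of -3.04 ± 0.24 (edgeR FDR = 2.65e-05). 9930111J21Rik2 had 2.04, 2.07 and 2.25 FPKM in GB2-treated cells, against 5.84, 5.95 and 6.87 FPKM in untreated cells, a log2 change of -1.54 ± 0.07 (edgeR FDR = 2.15e-06). Its copy 9930111J21Rik1 changed by -1.70 ± 0.17 (edgeR FDR = 9.37e-05). However, 70.5% of its 100-base words occur in other genes, mostly in 9930111J21Rik2, so the values of these copies may be split between them. Of the words of Gm5431, 20.6% occur in other genes, with 14.0% in 9930111J21Rik1. The values of these 3 genes are therefore not fully independent. All libraries of these 3 genes were lower in GB2-treated cells than in untreated cells. The gene called higher was Olfr56, an olfactory receptor gene that shares exonic bases with Ifi47 (2.84, edgeR FDR = 0.00162). Tgtp1 and Tgtp2, near-identical effector IRGs, had log2 changes of -0.24 and 0.15, with signs that turned when single libraries were left out.

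In the second IRG cluster of chromosome 11, both tested genes, Igtp and Irgm2, were lower at the FDR, as were 29.6% of all genes. Both were short of 2-fold. Irgm2, a regulatory IRG that is also linked to restraint of inflammasome activation, had 1.40, 1.74 and 1.59 FPKM in GB2-treated cells and 2.77, 2.40 and 2.62 FPKM in untreated cells. Its groups did not overlap, and its log2 change was -0.70 ± 0.13 (edgeR FDR = 0.00292), next to -0.93 for Igtp. The 3 regulatory IRGs, Irgm1, Igtp and Irgm2, were thus all lower in GB2-treated cells. Near Iigp1 on chromosome 18, its relative Gm4951 was too low to be tested and had 4, 63 and 50 estimated counts in GB2-treated replicates 1, 2 and 3, against 0, 0 and 8 in untreated replicates. As for Iigp1, the higher values were in the libraries with transcripts of other tissues. Outside these clusters, Irgq (-0.18, edgeR FDR = 0.0307), the very large GTPases Gvin1 (0.27, edgeR FDR = 0.0213) and Gm4070 (0.26, edgeR FDR = 0.0145) and the antiviral Mx2 (-0.37, edgeR FDR = 0.0377) passed the FDR with small changes, and each lost this when single libraries were left out, with an FDR of up to 0.255 for Irgq, 0.0970 for Gvin1, 0.0773 for Gm4070 and 0.140 for Mx2. Leaving out GB2-treated replicate 2 or 3 or untreated replicate 1 or 2 did so for Irgq, untreated replicate 1 or 2 for Gvin1 and Gm4070, and any library but GB2-treated replicate 1 for Mx2. Without GB2-treated replicates 2 and 3, the log2 change was -0.019 for Irgq, -0.15 for Mx2, 0.27 for Gvin1 and 0.26 for Gm4070. Gvin1 and Gm4070 are near-identical copies.

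**Figure D3:**
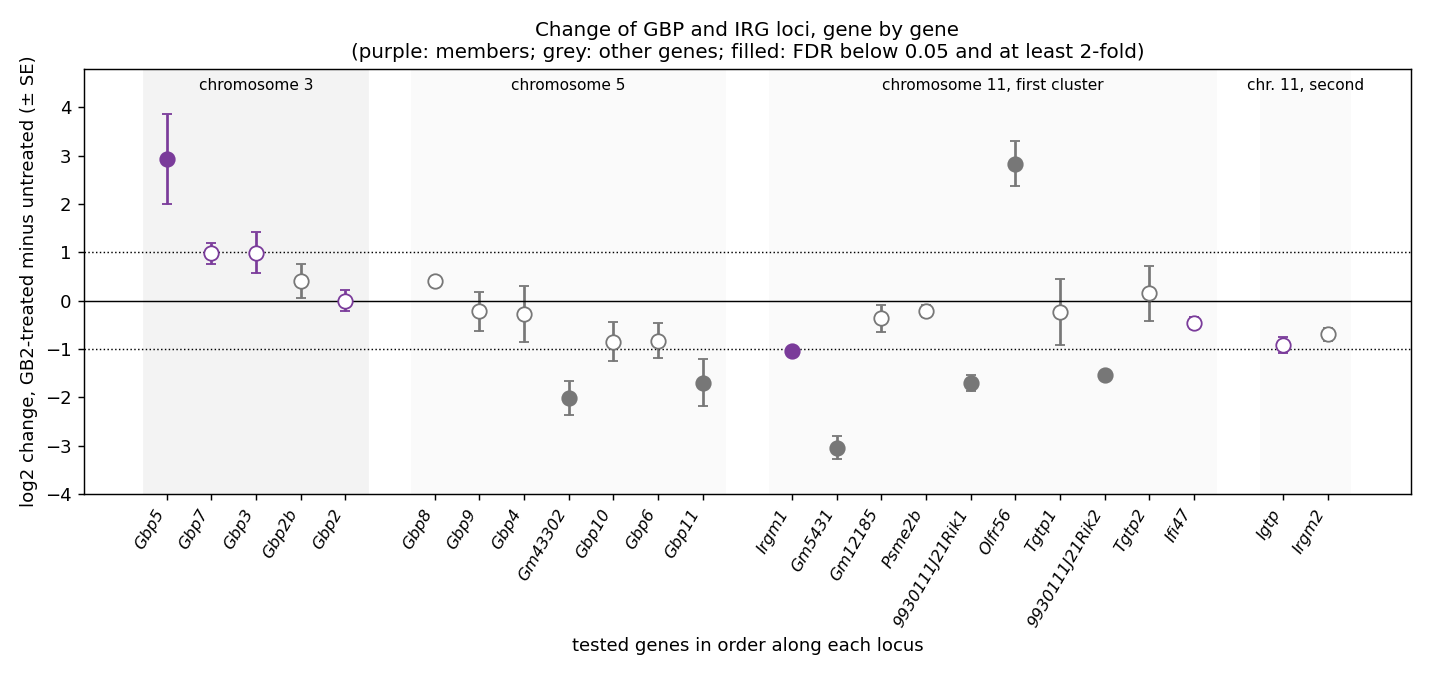
Log2 change (GB2-treated minus untreated) ± SE of every tested gene in the GBP and IRG clusters, in chromosomal order within each cluster, with the genes described first in purple, others in grey and filled symbols for genes called at an FDR below 0.05 and at least 2-fold (dotted lines). Chromosome 3 holds Gbp5, the only gene called higher there, while 4 of 10 genes of the first chromosome 11 cluster are called lower. Of the latter, Gm5431, 9930111J21Rik1 and 9930111J21Rik2 share sequence. Over all genes 13.4% were called higher and 7.73% lower.

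The genes that carry the interferon-gamma signal to GBP and IRG promoters were compared by role. Of 21 such genes, 20 were in the table and tested. Of these, 3 were called higher and 3 lower, against 13.4% and 7.73% of all genes. The ligand gene Ifng was not analysed here. Both receptor chains were lower in GB2-treated cells. Ifngr1, the ligand-binding chain, had 9.49, 8.77 and 7.34 FPKM in GB2-treated libraries, against 21.16, 21.80 and 20.33 FPKM in untreated libraries, a log2 change of -1.28 ± 0.10 (edgeR FDR = 2.85e-05). Ifngr2, the second chain, had 12.84, 13.39 and 12.82 FPKM in GB2-treated libraries, against 25.91, 26.11 and 26.47 FPKM in untreated libraries, a log2 change of -0.99 ± 0.04 (edgeR FDR = 1.42e-06), at the fold threshold and past it in some other fits. The 2 groups were far apart for both chains. Neither Ifngr promoter window held an ISRE or a GAS core.

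Of the kinases, Jak2 rose, with 28.87, 28.36 and 29.32 FPKM in GB2-treated cells and 9.25, 9.29 and 9.57 FPKM in untreated cells (1.64 ± 0.03, edgeR FDR = 5.80e-08), while Jak1 differed little (0.15, edgeR FDR = 0.0138, and 0.0905 or 0.0768 without untreated replicate 1 or 3). Irf1, an interferon-induced factor that acts at ISREs, had 5.32, 4.76 and 5.25 FPKM in GB2-treated cells and 6.25, 5.72 and 6.29 FPKM in untreated cells, a log2 change of -0.24 ± 0.07 (edgeR FDR = 0.0205). The groups did not overlap, but the FDR was 0.0573 to 0.115 without GB2-treated replicate 2 or 3 or untreated replicate 1 or 3. Without GB2-treated replicates 2 and 3 together the log2 change was -0.11. Irf8, a myeloid factor, had a log2 change of 0.75 ± 0.04 (edgeR FDR = 3.79e-06), and Irf9, the DNA-binding part of the type I interferon factor complex, of 0.48 ± 0.07 (edgeR FDR = 8.73e-04). Batf2, an interferon-gamma-induced factor, was called lower (-1.54 ± 0.22, edgeR FDR = 7.21e-04).

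Among genes that restrain the pathway, Socs3, an inhibitor of cytokine receptor signalling, had 129.39, 121.78 and 125.76 FPKM in GB2-treated cells, against 25.80, 24.83 and 24.37 FPKM in untreated cells (2.35 ± 0.04, edgeR FDR = 4.78e-08). Socs1, the main inhibitor of JAK kinases after interferon-gamma, was far less abundant, with 0.35, 0.17 and 0.08 FPKM in GB2-treated cells and 0.03, 0.01 and 0.00 FPKM in untreated cells. Its groups did not overlap and it was called higher (3.50 ± 1.02, edgeR FDR = 0.0218), but the FDR was 0.0534 without GB2-treated replicate 1, and 0.0543, 0.116 and 0.0520 without untreated replicate 1, 2 or 3. Ptpn1, a phosphatase that acts on JAK kinases, was called lower, with 5.99, 5.86 and 6.60 FPKM in GB2-treated cells and 16.04, 16.69 and 15.68 FPKM in untreated cells (-1.38 ± 0.05, edgeR FDR = 5.82e-07).

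**Figure D4:**
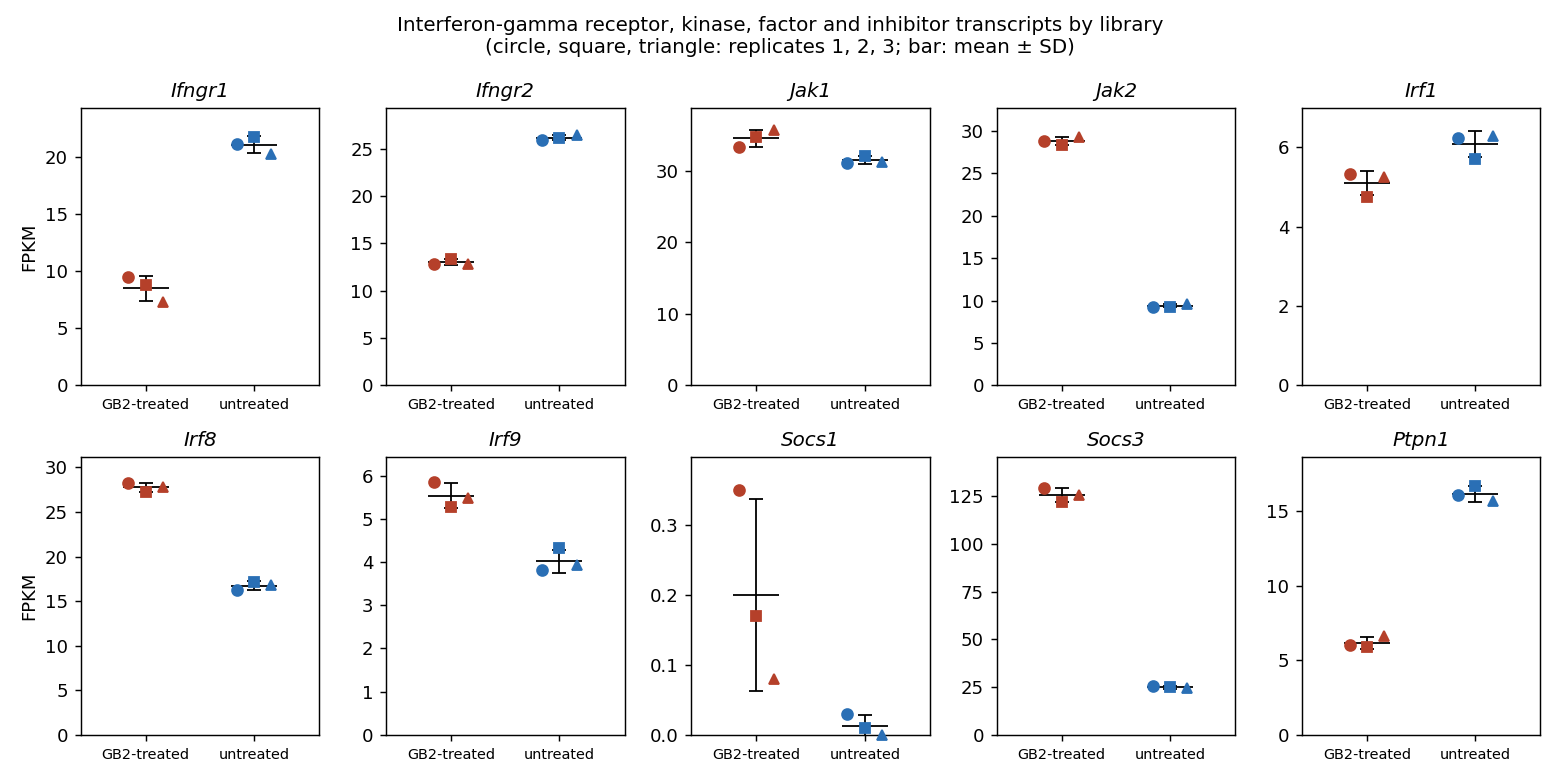
FPKM of receptor chains, kinases, factors and inhibitors of interferon-gamma signalling in each of the 3 GB2-treated (red) and 3 untreated (blue) libraries, with symbols for replicates 1, 2 and 3 and bars for the mean ± SD. Each panel has its own vertical axis from 0. Ifngr1, Ifngr2 and Ptpn1 are lower and Jak2, Irf8 and Socs3 are higher in GB2-treated cells, while the Irf1 libraries lie slightly lower.

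Of 16 genes of interferon ligands and the other interferon receptors, 9 were in the table and 3, all receptor chains, were tested. All 3 were lower in GB2-treated cells at the FDR, with no overlap between groups, and 1 was called. Over all genes these shares were 29.6%, 34.5% and 7.73%. Il10rb, a chain shared by the receptors of interleukin 10 and the lambda interferons, was called lower (-1.13 ± 0.07, edgeR FDR = 9.62e-06). Ifnar1, a chain of the type I interferon receptor, had 12.81, 12.21 and 13.66 FPKM in GB2-treated libraries, against 19.78, 18.68 and 19.86 FPKM in untreated libraries (-0.58 ± 0.04, edgeR FDR = 1.82e-05). Ifnar2, the other chain, had 15.05, 14.50 and 15.31 FPKM in GB2-treated libraries, against 20.41, 21.59 and 19.05 FPKM in untreated libraries (-0.43 ± 0.05, edgeR FDR = 3.83e-04). Both were lower by less than 2-fold. Ifnb1, the interferon-beta gene that STING signalling induces, was too low to be tested and had 4, 4 and 0 estimated counts in GB2-treated cells, against 0 in each untreated library.

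Other genes known as interferon-gamma targets showed no common direction. Of 34 on the list 30 were tested, and 8 were called higher and 2 lower, against 13.4% and 7.73% of all genes. The median log2 change was 0.11. The largest differences were those of Nos2, the inducible nitric oxide synthase (5.29), Upp1, a uridine phosphorylase (4.08), Cxcl10, a chemokine for T cells (3.09), Acod1, the itaconate synthase (1.95), and Cd274, which encodes PD-L1 (1.70), all higher, and of the Fc receptor gene Fcgr4 (-1.91), which was lower. The edgeR FDR of these 6 was between 3.52e-09 and 2.98e-04. Acod1 reached 473 ± 24.1 FPKM in GB2-treated cells, against 124 ± 0.10 FPKM in untreated cells (SD, n = 3 each), and these levels are far above those of any GBP or IRG member.

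Genes whose products work with GBPs and IRGs at vacuoles or in inflammasomes were mostly lower. Of 23 tested, 1 was called higher and 3 lower, against 13.4% and 7.73% of all genes. At the FDR alone 7 were higher and 15 lower, against 26.8% and 29.6% of all genes. The median log2 change was -0.50. Map1lc3b, an LC3 protein of the autophagy conjugation system that places GBPs and IRGs on vacuoles, was called lower (-1.38 ± 0.04, edgeR FDR = 1.98e-07). The ubiquitin ligase gene Trim21 (-1.10 ± 0.23, edgeR FDR = 0.00524) and the inflammasome sensor gene Nlrc4 (-1.003 ± 0.13, edgeR FDR = 4.29e-04) were also called lower, and the ubiquitin ligase gene Traf6 was called higher (1.07 ± 0.05, edgeR FDR = 2.72e-06). Trim21 was -0.88 without GB2-treated replicate 2, -0.83 without GB2-treated replicates 2 and 3, and Nlrc4 was -0.93 without GB2-treated replicate 1 and -0.98 without untreated replicate 3, short of 2-fold.

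The enzymes that prenylate and process proteins ending in a CaaX motif, such as Gbp2 and Gbp5, differed little. Of 6 tested, 0 were called in either direction by edgeR or in any other fit tried. At the FDR alone 1 was higher and 4 were lower, against 26.8% and 29.6% of all genes. The same counts held at an unadjusted p below 0.05. Fnta, the shared alpha subunit of the prenyltransferases, had a log2 change of -0.20 ± 0.05 (edgeR FDR = 0.00788), and Icmt, the terminal methyltransferase, of 0.18 ± 0.05 (edgeR FDR = 0.0136). Leaving out GB2-treated replicate 2 or 3 took the FDR of Fnta to 0.105 or 0.111. Leaving out GB2-treated replicate 1 or untreated replicate 2 or 3 took that of Icmt to 0.0557, 0.0642 or 0.0795. Without GB2-treated replicates 2 and 3 together, the log2 change was -0.074 for Fnta and 0.30 for Icmt.

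Lastly, the genes whose pattern over the 6 libraries was most like that of the most abundant member of each family were sought among 11278 genes that averaged 1 FPKM or more. For Gbp2 these were Cd24a, Sgk1 and Sdc1 (Pearson r = 0.98, 0.98 and 0.97), and for Irgm1 they were Ube2g2, Polr2l and Lpcat4 (r = 1.00 each). The values are a description over 6 libraries that share a single contrast. Ube2g2, a ubiquitin-conjugating enzyme, had 18.03, 17.91 and 19.60 FPKM in GB2-treated cells and 29.37, 28.67 and 28.23 FPKM in untreated cells. Cd24a, a surface glycoprotein, had 1.36, 4.47 and 3.44 FPKM in GB2-treated cells and 3.48, 3.33 and 3.50 FPKM in untreated cells. Its lowest value was in GB2-treated replicate 1. Gbp2 hardly varied, with 0.56 FPKM in that library and 0.61 to 0.64 FPKM in the others, so its r values describe a very small difference.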

How the data were processed

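Libraries of poly(A) RNA from 3 GB2-treated and 3 untreated samples were grouped by their labels. Tools listed in the submitters' processing notes are StringTie 2.1.6, HISAT2 2.2.1, cutadapt 1.9, edgeR and DESeq2, with build mm10. Which annotation was used, whether strand was read and how fragments were counted is not given in the sources used here. For every gene the authors deposited estimated counts, which were whole numbers and were used as they stood. Low counts piled up at multiples of 4, so a fit on counts divided by 4 was among the alternatives. The authors also deposited FPKM, used for levels. Counts over genes differed beyond sampling noise in each comparison of 2 libraries (chi-square per degree of freedom 13.4 to 734), so none was treated as a repeat deposit.

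The test was the two-sided quasi-likelihood F test of edgeR 4.0.16 (R 4.3.3; TMM scaling, default filter, no covariate) over 17124 genes with Benjamini-Hochberg adjustment. Standard errors were obtained by dividing a log2 change by √F. The fit was tested on simulated data. Alternatives were DESeq2 size factors, no filter, the DESeq2 1.42.0 Wald test, limma 3.58.1 on log2(FPKM + 1) or log2(FPKM + 0.1) with a filter at a mean of 1 FPKM, log2(FPKM + 1) with no filter, counts divided by 4, a replicate block, and fits without libraries. Exon overlaps and shared 100-base words were taken from GENCODE M21, and promoter windows from RefSeq.

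The 8 members and the lists of relatives, signalling genes, targets, partners and markers were chosen with earlier results of these data known. Named genes were all members, all tested relatives, a fixed set of signalling genes, and of each other list up to 6 called genes with the largest change, or else the 2 with the highest FPKM. A gene of the signalling set is not reported here. Some further genes (Gm43302, Olfr56, Ifnb1, Mx1, Gm4951, F830016B08Rik, Ifnar1 and Ifnar2) were named after their values were seen.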

Additional observations from a re-analysis of the deposited data

How the results depend on the processing

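Depth limits the GBP members, Iigp1, Socs1 and Gbp11, which rest on few counts. The labels do not say whether replicate numbers pair the libraries, and the main test did not pair them. Same-numbered libraries deviated together with r of 0.03, 0.06 and 0.11. Each correlated best with its own number, a hint from the data and not the design. With a replicate block 0 members were called higher, since Gbp5 had an FDR of 0.0771 (log2 change 3.17), Ifi47 (FDR = 0.051) no longer passed the FDR, and the block moved no other count of calls by over 1.5 times.

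Over 15 alternatives per count, calls moved mostly at the fold threshold. The members called higher (1) were 2 with DESeq2 size factors, 3 with counts divided by 4, 0 with no filter, 0 in each of the 3 limma fits, and 0 to 2 when single libraries were left out. The members called lower (1) were 0 with DESeq2 size factors, 0 with counts divided by 4, 0 in both limma fits on log2(FPKM + 1), and 0 to 2 when single libraries were left out. Over all genes, 2300 called higher became 603, 860 and 598 in limma on log2(FPKM + 1), on log2(FPKM + 0.1) and with no filter, 1432 without GB2-treated replicates 2 and 3 together, and 1486 to 3728 without single libraries, the highest without GB2-treated replicate 1. The 1324 called lower became 611 in limma on log2(FPKM + 1), 614 with no filter, and 1217 to 1530 without single libraries. Relatives called higher (0) were 3 by the DESeq2 Wald test and 0 to 3 without single libraries, and interferon ligands and receptors 0 to 1. Other interferon-gamma targets called higher (8) were 5 in both limma fits on log2(FPKM + 1) and 7 to 10 without single libraries, and those called lower (2) were 1 in these limma fits, 1 with counts divided by 4 and 1 to 2 without single libraries. Vacuole and inflammasome partners called higher (1) were 2 by the DESeq2 Wald test, 0 in both limma fits on log2(FPKM + 1) and 1 to 2 without single libraries, and those called lower (3) were 1 in each limma fit.

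Of the members, Gbp2 turned sign with DESeq2 size factors (0.040), the DESeq2 Wald test (0.015) and counts divided by 4 (0.065), and ranged from -0.039 to 0.035 without single libraries. Gbp5 was 2.89 with no filter (FDR = 0.0850), 0.13 in limma on log2(FPKM + 1) with no filter, 2.51 without GB2-treated replicates 2 and 3 together, and 2.32 to 3.40 without single libraries. With counts divided by 4, Gbp3 was 1.02 (FDR = 0.0388), Gbp7 1.03 and Irgm1 -0.98. With DESeq2 size factors, Gbp7 was 1.02 and Irgm1 -0.999. In both limma fits on log2(FPKM + 1), whose pseudocount shrinks low genes, Irgm1 was -0.80. The limma fits with a filter did not test the GBP members or Iigp1, which average under 1 FPKM. With no filter, the pseudocount of 1 kept their low levels from reaching 2-fold, so limma could not call them. Without single libraries, Gbp3 ranged from 0.70 to 1.45, Gbp7 from 0.89 to 1.01, Irgm1 from -1.09 to -0.97, Igtp from -1.01 to -0.82 and Iigp1 from 0.86 to 2.32. Without GB2-treated replicates 2 and 3 together, Tgtp1 was 0.73 and Gbp4 was -1.99. Without GB2-treated replicate 1, Gbp6 was -1.16 and called lower. Without single libraries Gbp4 ranged from -0.58 to 0.14, Gbp9 from -0.58 to 0.053, Tgtp1 from -1.09 to 0.50 and Tgtp2 from -0.32 to 0.83. For the members, 83 of the values under an alternative kept their direction and side of the thresholds, 9 moved past them, 13 fell short of them and 5 turned sign. The cause of these shifts was not tested. The median log2 change of all genes was 0.01 and ranged from -0.12 to 0.24 over these fits.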
